A study of Mus musculus with 6 samples.

Results

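Kinesins are motor proteins that walk along microtubules, mostly towards the end that points into the axon, and carry vesicles, organelles and messenger RNA granules away from the cell body. In neurons the workhorse is kinesin-1, a complex of paired heavy chains (the motors, Kif5a, Kif5b and Kif5c) and paired light chains (the cargo-binding Klc proteins), beside kinesin-2 and kinesin-3 motors with other cargoes. A second set of kinesins builds the mitotic spindle and is low in cells that have stopped dividing, and a further set serves cilia. The genes described here are the rows of the deposited count table whose symbol is Kif, a number and at most 1 letter, or Klc1, Klc2, Klc3 or Klc4. The rule found 41 of the 24421 genes in the table, of which 33 passed the filter on low counts and were tested.

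The libraries came from Foxp2-Cre mice whose medial prefrontal cortex (mPFC) had received, on both sides, an adeno-associated virus carrying GFP with a KASH domain, which holds the label on the nuclear envelope. There were 3 libraries from mice in the pain condition, treated with CFA, that is complete Freund's adjuvant, which inflames the injected tissue, and 3 from saline controls, and both groups carried the same Cre driver and virus and were collected 4 weeks after the injection of virus. The labels do not state age, sex, strain background, the interval between CFA and collection, or whether each library came from its own animal. A p-value here is therefore measured against library-to-library spread, some of which may be technical. Each library was made from polyadenylated RNA of 10000 sorted nuclei, so levels describe transcripts in the nucleus and not the motor proteins.

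Total counts per library ranged from 10663201 to 11850741 in CFA and from 9673038 to 11117681 in saline. The content of the sorted libraries was described with marker lists, without an unsorted library for comparison. Slc17a7, the vesicular glutamate transporter of cortical excitatory neurons, was at 1931 to 2645 CPM (counts scaled to a common library size) in CFA and 1947 to 2290 CPM in saline, and Foxp2 itself at 24.0 to 34.9 CPM and at 28.3 to 43.7 CPM. Transcripts listed as markers of other cell types were also detected, and which nuclei they came from was not tested. The summed level of 11 astrocyte markers was 501 to 699 CPM in CFA and 499 to 568 CPM in saline, that of 10 oligodendrocyte markers 316 to 497 CPM and 349 to 451 CPM, and that of 9 inhibitory neuron markers 136 to 211 CPM and 136 to 208 CPM, with none of these markers at 0 in all libraries. The summed level of 10 striatal projection neuron markers was highest in saline replicate 1, at 1016 CPM against 290 to 488 CPM in CFA and 397 and 502 CPM in the other saline libraries. All 9 tested striatal markers had negative log2 fold changes (median -1.01), with 6 at an unadjusted p under 0.05 and 2 without overlap. The same p level was reached by 3 of 11 astrocyte, 1 of 11 microglia, 1 of 9 inhibitory neuron and 0 of 10 oligodendrocyte markers. Among the 6 tested oligodendrocyte precursor markers 2 reached that level, as did 3.22% of all genes. Astrocyte markers had 6 positive and 5 negative of 11 (median 0.48), with 3 higher in CFA without overlap, and microglia markers 9 positive and 2 negative of 11 (median 0.54). Inhibitory neuron markers had 8 positive and 1 negative of 9 (median 0.23), and oligodendrocyte markers 4 positive and 6 negative of 10 (median -0.03). None of these markers had an adjusted p under 0.05, and groups did not overlap for 7.51% of all genes. The 7 oligodendrocyte precursor markers summed to 31.8 to 45.6 CPM in CFA and 19.0 to 28.5 CPM in saline, without overlap. Of the 6 tested, 5 had a positive and 1 a negative log2 fold change. Taken singly, 3 were higher and 1 was lower in CFA without overlap, and 0 were called. The part of these markers in the kinesin levels was not tested, and in bulk libraries fewer cells of a type and less RNA per cell cannot be told apart.

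The sequences upstream of the members' starts were read for motifs of neuronal and of cell cycle genes. A RefSeq promoter window (GRCm38.p6) was matched for 34 of the 41 members, 17 of them in the transport and microtubule-end classes, 11 mitotic and 6 ciliary, and the first listed window was used for genes with several. The 250 bases before the start were searched on both strands for 5 motifs. The cAMP response element, TGACGTCA, was present in 3 of the 17 transport and microtubule-end windows (Klc1, Kif5c and Kif17), in 0 of the 17 mitotic and ciliary windows and in 1.62% of the windows of all 27025 genes. The cell cycle gene homology region, TTTGAA or TTCAAA, was present in 5 of 11 mitotic windows (Kif11, Kif14, Kif15, Kif22 and Kif2c), in 1 of 17 transport and microtubule-end windows (Kif26b), in 1 of 6 ciliary windows (Kif27) and in 16.3% of all windows. The Kif2c window (chr4:117178773-117179022) lies inside the counted gene model, which spans chr4:117159633-117182624 on the minus strand, and is not upstream of that model. The Klc1 window (chr12:111758618-111758867) ends inside the counted gene model, which starts at chr12:111758849 on the plus strand. The CCAAT box, CCAAT or ATTGG, was in 7 of 11 mitotic, 6 of 17 transport and microtubule-end and 3 of 6 ciliary windows, against 34.5% of all. The palindromic NRF1 motif was in Kif2a and Kif18b and in 3.86% of all windows. GGGCGG, the GC box, was in 13 of 17 transport and microtubule-end, 6 of 11 mitotic and 3 of 6 ciliary windows, against 32.9% of all. Such matches describe letters and not binding. The median share of G and C was 69.2% in transport and microtubule-end windows, 59.6% in mitotic and 54.6% in ciliary windows, against 52% over all genes. The part of base composition in the motif shares was not tested.

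The 3 windows with the cAMP response element and 2 of the 3 mitotic windows that hold both a CCAAT box and a homology region (Kif14 is the third) are shown as examples, 5′ to 3′ on the gene's strand and ending 1 base before the start, with the cAMP response element, the CCAAT box and the homology region in capitals. They lie at chr12:111758618-111758867 (plus strand, Klc1), chr2:49619036-49619285 (plus, Kif5c), chr4:138262001-138262250 (plus, Kif17), chr19:37376132-37376381 (plus, Kif11) and chr7:127042421-127042670 (minus, Kif22).
Klc1: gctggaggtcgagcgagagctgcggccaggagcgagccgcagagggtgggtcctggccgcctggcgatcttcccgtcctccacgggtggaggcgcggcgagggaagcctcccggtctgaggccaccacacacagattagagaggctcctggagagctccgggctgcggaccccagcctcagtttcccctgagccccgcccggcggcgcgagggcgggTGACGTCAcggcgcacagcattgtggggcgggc
Kif5c: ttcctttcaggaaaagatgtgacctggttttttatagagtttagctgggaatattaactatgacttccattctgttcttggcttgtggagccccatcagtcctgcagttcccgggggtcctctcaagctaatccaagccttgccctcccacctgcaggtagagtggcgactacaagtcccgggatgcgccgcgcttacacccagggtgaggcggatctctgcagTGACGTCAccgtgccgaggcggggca
Kif17: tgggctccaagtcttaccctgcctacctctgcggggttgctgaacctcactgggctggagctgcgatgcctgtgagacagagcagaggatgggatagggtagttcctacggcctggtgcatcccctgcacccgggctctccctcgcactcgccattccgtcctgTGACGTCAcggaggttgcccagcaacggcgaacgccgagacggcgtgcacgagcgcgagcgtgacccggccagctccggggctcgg
Kif11: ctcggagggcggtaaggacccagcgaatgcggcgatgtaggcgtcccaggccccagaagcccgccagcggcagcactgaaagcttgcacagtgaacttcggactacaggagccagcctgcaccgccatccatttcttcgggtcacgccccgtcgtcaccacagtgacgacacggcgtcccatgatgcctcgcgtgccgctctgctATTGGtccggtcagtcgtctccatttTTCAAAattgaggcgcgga
Kif22: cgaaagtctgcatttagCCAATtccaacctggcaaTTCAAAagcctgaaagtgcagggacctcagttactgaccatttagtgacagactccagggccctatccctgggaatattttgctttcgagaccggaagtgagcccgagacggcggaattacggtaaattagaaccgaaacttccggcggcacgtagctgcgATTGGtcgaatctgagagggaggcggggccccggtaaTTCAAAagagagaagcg
In Klc1 the first base of the element lay 33 bases before the start, in Kif5c 26 bases and in Kif17 86 bases. In Kif11 the CCAAT box lay 45 and the homology region 19 bases before the start, and Kif22 held the nearest pair at 54 and 17 bases. The upstream windows of transport and microtubule-end members held a median of 22 CpG dinucleotides (9 to 49), those of mitotic members 19 (2 to 25) and those of ciliary members 13.5 (1 to 25), where all genes had a median of 6.

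Levels are compared between genes as RPKM, which is CPM divided by the exon length of the gene model in kilobases. In every library each transport class summed to more than the mitotic and the ciliary class, while the microtubule-end and atypical class was nearer to them, at 10.1 to 12.7 RPKM in CFA and 10.8 to 15.7 RPKM in saline against 4.93 to 9.97 RPKM and 6.52 to 8.45 RPKM for the mitotic class (the plot of levels by gene). Of the 22 members of those classes, 15 had a higher mean RPKM than every mitotic or ciliary member. Of the others, Kif13a, Kif26a, Kif13b, Klc3, Kif26b and Kif1c lay below both Kif22 and Kif9. The 41 members summed to 627 ± 47.3 RPKM in CFA and 632 ± 39.6 RPKM in saline (SD, n = 3 each). Light chains made up 44.5% of that sum in CFA and 42.9% in saline, kinesin-1 heavy chains 19.5% and 19.7%, kinesin-2 motors 14.2% and 13.5%, kinesin-3 motors 12.5% and 13.5%, and the pair of neuronal kinesin-4 motors 5.66% and 6.44%. All 12 mitotic members together made up 1.18% in CFA and 1.14% in saline, and all 7 ciliary members 0.781% and 0.754%.

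**Figure D1:**
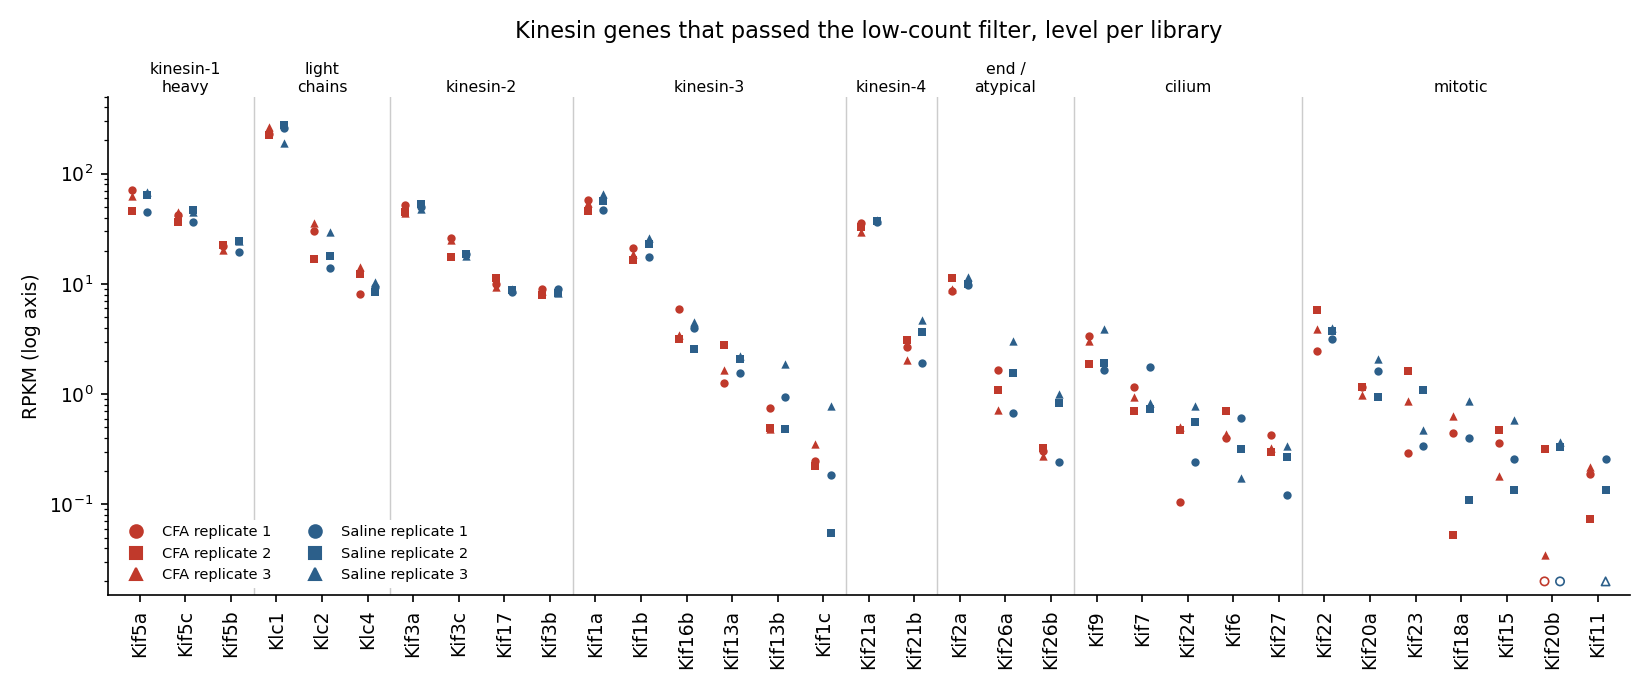
Level of each of the 33 tested kinesin genes in each library, as RPKM on a log axis, with CFA libraries (red) left of saline libraries (blue) and the replicate given by the marker; hollow markers at the foot stand for a count of 0. Klc1 is the highest gene in all 6 libraries, and most mitotic and ciliary genes lie under 1 RPKM.

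Setting CFA against saline asks whether kinesin genes differ between the pain and control conditions in these nuclei. No kinesin gene passed. With Benjamini-Hochberg adjustment of edgeR's quasi-likelihood p over 13560 genes, 0 of 33 members had an adjusted p under 0.05 (smallest 0.99997), as did 0 (0%) of all genes. At an unadjusted p under 0.05 there were again 0 members, against 3.22% of all genes, and DESeq2 and limma-voom called 0 members. The groups did not overlap for 2 of 33 members (6.06%), against 7.51% of all genes. These were Kif17, higher in CFA, a direction without overlap in 3.55% of all genes, and Kif21a, lower in CFA, as were 3.97% of all genes without overlap. Log2 fold changes, CFA minus saline, were positive for 14 members and negative for 19, with a median of -0.06, where all genes had a median of -0.0011.

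The precision differed sharply between abundant and scarce members. The 95% interval of the log2 fold change lay wholly within 1 in either direction for 14 of the 16 members with a mean of at least 20 CPM, where 96.6% of all genes of that level did so. The exceptions were Klc2 and Kif21b. Among the 17 members under 20 CPM this held for 2, Kif13a and Kif22, and for 27.1% of all genes under that level (the plot of fold changes with intervals). For the other 15 scarce members the interval did not exclude a change of that size.

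**Figure D2:**
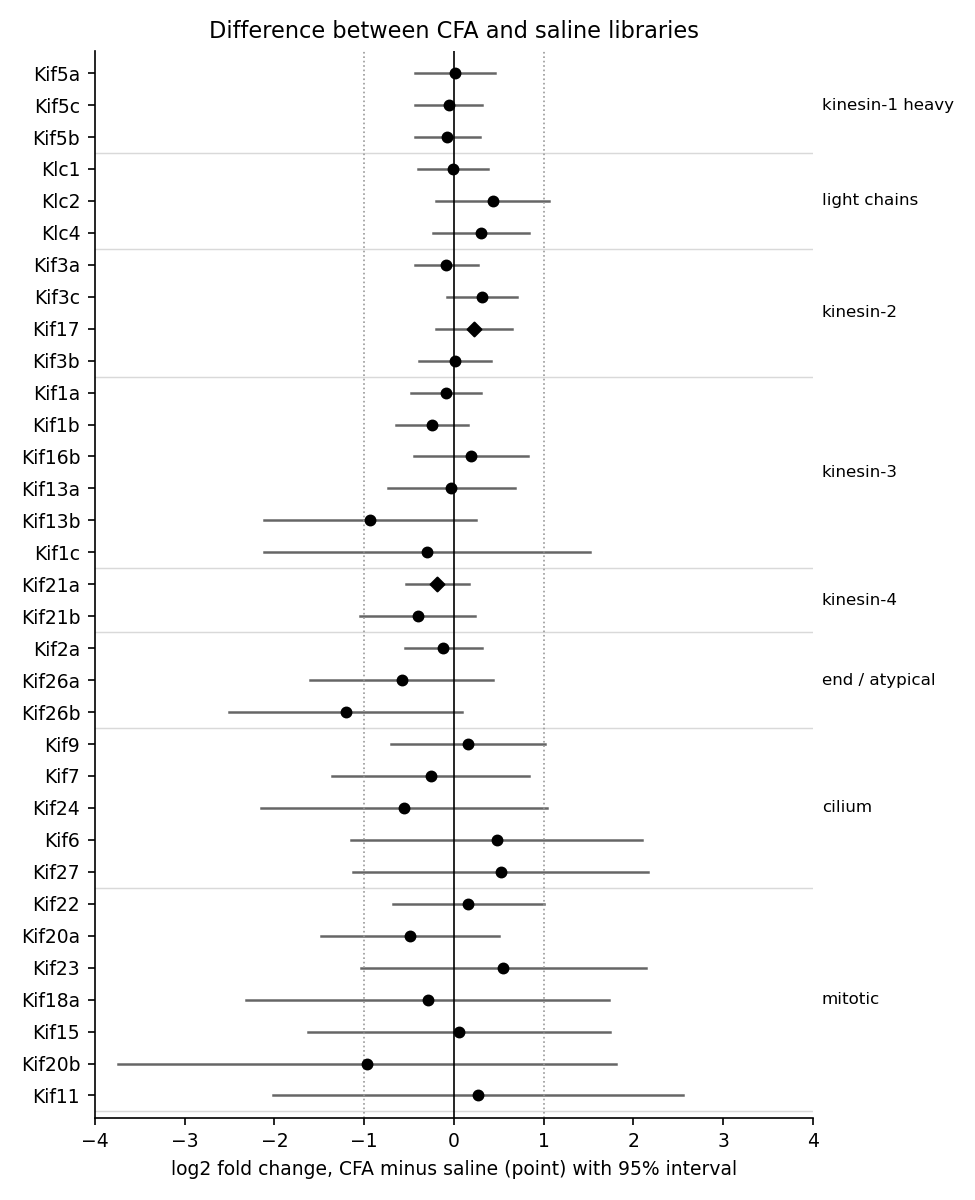
Log2 fold change of CFA over saline for the 33 tested kinesin genes, by class, with 95% intervals from edgeR's quasi-likelihood fit; diamonds mark the 2 genes whose groups do not overlap and dotted lines a log2 fold change of 1 in either direction. Every interval includes 0, and intervals widen from the transport classes to the ciliary and mitotic ones.

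Kinesin-1 heavy chains were at like levels in both groups, with intervals that stayed well within 1 on the log2 scale. Kif5a, which is restricted to neurons and is mutated in a hereditary spastic paraplegia, was at 70.7, 46.0 and 62.3 RPKM in CFA replicates 1 to 3 and at 45.1, 64.5 and 68.2 RPKM in saline replicates 1 to 3. It was lowest in CFA replicate 2 and saline replicate 1, and its log2 fold change was 0.01 ± 0.21 (SE; 95% interval -0.43 to 0.45). Kif5c, the other neuron-enriched heavy chain, was at 42.1, 36.1 and 45.1 RPKM in CFA and 36.6, 46.6 and 45.0 RPKM in saline, lowest in the same pair of libraries, with a log2 fold change of -0.06 ± 0.17. The widely expressed Kif5b was at 22.1, 22.3 and 20.4 RPKM in CFA and 19.5, 24.4 and 24.2 RPKM in saline, with a log2 fold change of -0.07 ± 0.17. All 3 genes overlapped between the groups. No 50-base window of the longest coding transcript of Kif5a, Kif5b or Kif5c occurred in a transcript of another kinesin gene in GENCODE M21.

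Light chains link the heavy chains to cargo, and 1 gene carried most of the signal. Klc1 (chr12:111758849-111807844 in mm10) was at 227, 226 and 264 RPKM in CFA and 257, 276 and 189 RPKM in saline, above 98.6% of all tested genes. Its groups overlapped, and the log2 fold change was -0.01 ± 0.18 (95% interval -0.41 to 0.38). Klc2 was at 30.3, 16.7 and 35.7 RPKM in CFA and 13.8, 17.9 and 29.6 RPKM in saline. CFA replicate 2 was below saline replicates 2 and 3, and the log2 fold change was 0.43 ± 0.30 (95% interval -0.20 to 1.06). Without CFA replicate 2 the change was 0.69 (unadjusted p = 0.0337 in edgeR's quasi-likelihood test) and without saline replicate 3 it was 0.80 (unadjusted p = 0.0120), neither of which passed the adjustment. Without CFA replicate 3 it was 0.20 (unadjusted p = 0.546 in the same test) and without saline replicate 1 it was 0.21 (unadjusted p = 0.494). Klc4 was at 8.17, 12.2 and 14.3 RPKM in CFA and 9.32, 8.43 and 10.3 RPKM in saline, with CFA replicate 1 the lowest of all libraries and a log2 fold change of 0.30 ± 0.25. Klc3 had 79 counts in all and was not tested, and 28.8% of its exon bases overlap Ercc2 on the other strand, which this unstranded preparation cannot tell apart. Light chains summed over heavy chains gave a ratio of RPKM of 1.98, 2.44 and 2.46 in CFA and 2.77, 2.24 and 1.67 in saline.

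Kinesin-2 motors showed the member with the clearest order between groups, though not by the test. In this family Kif3a pairs with Kif3b or Kif3c, and Kif17 works as a homodimer known for carrying NMDA receptor subunits into dendrites. Kif17 (chr4:138262251-138301973 in mm10) was at 9.99, 11.2 and 9.43 RPKM in CFA and 8.43, 8.76 and 8.98 RPKM in saline. Every CFA library lay above every saline library by a small margin, with a log2 fold change of 0.23 ± 0.20 (unadjusted p = 0.267 in edgeR's quasi-likelihood test). Kif3c was at 26.1, 17.6 and 24.9 RPKM in CFA and 18.7, 18.6 and 17.9 RPKM in saline. Both CFA replicates 1 and 3 were above all saline libraries while CFA replicate 2 was the lowest of all, and the log2 fold change was 0.31 ± 0.18. Without CFA replicate 2 it was 0.47 (unadjusted p = 0.0254 in edgeR's quasi-likelihood test), and without CFA replicate 1 it was 0.20 (unadjusted p = 0.365). Exons of Kif3c overlap those of 1110002L01Rik on the other strand over 38.1% of their length, and that gene model had 30 to 63 counts per library in CFA and 38 to 45 in saline. Kif3a was at 52.2, 45.0 and 43.8 RPKM in CFA and 49.4, 52.6 and 47.4 RPKM in saline, with a log2 fold change of -0.08 ± 0.16. Kif3b was the tested member with the smallest ratio of its highest to its lowest library. It was at 9.03, 7.99 and 8.69 RPKM in CFA and 8.99, 8.33 and 8.19 RPKM in saline. Its log2 fold change was 0.01 ± 0.19.

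Kinesin-3 motors were led by Kif1a, the carrier of synaptic vesicle precursors, and its relative Kif1b. Kif1a was at 58.1, 45.8 and 54.6 RPKM in CFA and 46.3, 56.8 and 65.6 RPKM in saline, and Kif1b at 21.0, 16.6 and 18.5 RPKM and at 17.5, 23.1 and 25.8 RPKM. Both genes were lowest in CFA replicate 2 and highest in saline replicate 3, and their log2 fold changes were -0.09 ± 0.18 and -0.24 ± 0.19. Kif16b, a motor of early endosomes, was at 5.93, 3.17 and 3.42 RPKM in CFA and 3.94, 2.57 and 4.49 RPKM in saline (log2 fold change 0.19 ± 0.30). Kif13a, which moves endosomal carriers, was at 1.27, 2.80 and 1.64 RPKM in CFA and 1.56, 2.07 and 2.1996 RPKM in saline (log2 fold change -0.03 ± 0.33). The groups overlapped for both. Kif13b, which binds the scaffold Dlg1, was at 0.742, 0.488 and 0.480 RPKM in CFA and 0.942, 0.480 and 1.86 RPKM in saline. Its log2 fold change was -0.93 ± 0.55 (unadjusted p = 0.112 in edgeR's quasi-likelihood test). Without saline replicate 3 it was -0.31 (unadjusted p = 0.613 in the same test), and without saline replicate 2 it was -1.29 (unadjusted p = 0.0273). Kif1c, a motor of Golgi and focal adhesion traffic, was at 0.246, 0.222 and 0.355 RPKM in CFA and 0.185, 0.0548 and 0.779 RPKM in saline. Its log2 fold change of -0.30 ± 0.85 became 1.18 without saline replicate 3.

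Neuronal kinesin-4 motors both had negative fold changes that did not pass. Kif21a (chr15:90933275-91049951 in mm10), which restrains microtubule growth, was at 35.6, 32.9 and 29.5 RPKM in CFA and 36.7, 37.1 and 37.6 RPKM in saline. All CFA libraries lay below the saline libraries, which were nearly equal, but the nearest pair differed by little, and the log2 fold change was -0.18 ± 0.16 (unadjusted p = 0.276 in edgeR's quasi-likelihood test). With library-size scaling its groups overlapped. Kif21b, known for dendritic microtubule dynamics, was at 2.65, 3.12 and 2.03 RPKM in CFA and 1.92, 3.69 and 4.75 RPKM in saline. Saline replicate 1 was the lowest of all libraries, and the log2 fold change was -0.40 ± 0.30, or -0.70 without that library (unadjusted p = 0.0171 in edgeR's quasi-likelihood test). Without saline replicate 3 it was -0.11 (unadjusted p = 0.724 in the same test), and without CFA replicate 3 it was -0.25.

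Microtubule-end and atypical kinesins ranged from a moderate to a scarce level. Kif2a, which takes microtubules apart at their ends and limits axon branching, was at 8.60, 11.3 and 9.07 RPKM in CFA and 9.87, 9.92 and 11.6 RPKM in saline (log2 fold change -0.12 ± 0.20). Kif26a and Kif26b are atypical members with roles in signalling. Kif26a was at 1.67, 1.10 and 0.723 RPKM in CFA and 0.673, 1.54 and 3.03 RPKM in saline, with a log2 fold change of -0.58 ± 0.48 that was 0.077 without saline replicate 3 and -0.97 without saline replicate 1. Kif26b was at 0.303, 0.321 and 0.273 RPKM in CFA and 0.242, 0.826 and 1.01 RPKM in saline. Saline replicates 2 and 3 were far above the CFA libraries and saline replicate 1 below them. Its log2 fold change of -1.21 ± 0.60 was the largest of the 33 in size and had the smallest unadjusted p, 0.0655 in edgeR's quasi-likelihood test, and without saline replicate 1 it was -1.62 (unadjusted p = 0.0101). Without saline replicate 3 it was -0.83 (unadjusted p = 0.251 in the same test).

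Mitotic kinesins were scarce. Of 12 mitotic members, 7 were tested, and 2, Kif2b and Kif18b, had 0 counts in all libraries, which allows up to 0.2496 to 0.288 CPM per CFA library and 0.268 to 0.304 CPM per saline library at 3 counts, for counting error alone. Kif4, Kif14 and Kif2c had 23, 6 and 18 counts over all 6 libraries. The most abundant mitotic member was Kif22, which binds chromosome arms, at 2.46, 5.85 and 3.87 RPKM in CFA and 3.16, 3.77 and 3.98 RPKM in saline (log2 fold change 0.16 ± 0.39). Kif20a, needed for cytokinesis, was at 1.17, 1.15 and 0.985 RPKM in CFA and 1.60, 0.950 and 2.10 RPKM in saline (log2 fold change -0.49 ± 0.46), but 28.6% of its exon bases overlap Cdc23 and 5.86% overlap Brd8, both on the other strand and both with 791 or more counts in every library, and reads of the overlapping strands cannot be told apart. Kif23, also a cytokinesis motor, was at 0.291, 1.62 and 0.870 RPKM in CFA and 0.340, 1.08 and 0.473 RPKM in saline (log2 fold change 0.55 ± 0.74). Kif11, the spindle motor, had 47 counts in all, and Kif15, Kif18a and Kif20b 105, 90 and 62. Among 21 markers of proliferation, Top2a and Aurkb were at 0 in all libraries, and the list summed to 77.7 to 78.7 CPM in CFA and 75.5 to 89.9 CPM in saline. Of the 13 tested, 0 were called, and the median log2 fold change was -0.45, against 0.06 for the 7 tested mitotic kinesins.

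Ciliary kinesins were also scarce, with 5 of 7 tested. Kif9, a motor of motile cilia and sperm tails, was at 3.36, 1.87 and 3.03 RPKM in CFA and 1.64, 1.91 and 3.89 RPKM in saline (log2 fold change 0.15 ± 0.40). Kif7, which controls Hedgehog signalling at the primary cilium, was at 1.16, 0.702 and 0.935 RPKM in CFA and 1.78, 0.738 and 0.829 RPKM in saline (log2 fold change -0.26 ± 0.51). Kif24, which holds back cilium formation, was at 0.104, 0.473 and 0.498 RPKM in CFA and 0.240, 0.563 and 0.778 RPKM in saline (log2 fold change -0.56 ± 0.75). The groups overlapped for all 3. Kif6 and Kif27 had 103 and 87 counts in all. Kif12 had 0 counts and Kif19a 1, and neither was tested. The 14 markers of motile cilia in the table summed to 63.7 to 96.4 CPM in CFA and 74.8 to 124 CPM in saline, with none at 0 in all libraries and 0 of 9 tested called. Of those 9, 1 had a positive and 8 a negative log2 fold change (median -0.29), and the groups overlapped for all.

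The balance between closely related motors was then compared within each library, as the share of reads per exon length. Of 5 such shares, 0 passed a two-sided exact permutation test, which cannot go below 0.1 at 3 against 3 libraries (the plot of paralog shares). The share of Kif1a in Kif1a plus Kif1b was 73.5%, 73.4% and 74.7% in CFA and 72.6%, 71.1% and 71.7% in saline. It was higher in each CFA library than in any saline library, by 2.06 percentage points between the means (p = 0.1 in the exact permutation test, 0.5 adjusted over the 5 shares). With the exon-length trend removed, the log2 fold change of Kif1b moved from -0.24 to -0.016 and that of Kif1a from -0.09 to 0.014. The share was not recomputed under that setting. The share of Kif3c in Kif3b plus Kif3c was 74.3%, 68.8% and 74.1% in CFA and 67.6%, 69.0% and 68.6% in saline, a difference of 4.02 points with CFA replicate 2 inside the saline range (exact permutation p = 0.2, adjusted 0.5). Kif5c made up 31.2%, 34.6% and 35.3% of kinesin-1 heavy chains in CFA and 36.2%, 34.4% and 32.8% in saline (exact permutation p = 0.7). Kif5a made up 48.4% ± 4.19 in CFA and 47.2% ± 2.54 in saline, and Kif5b 17.9% ± 3.00 and 18.3% ± 0.860 (SD, n = 3 each). Klc1 made up 88.3%, 93.1% and 88.1% of Klc1 plus Klc2 in CFA and 94.9%, 93.9% and 86.4% in saline (exact permutation p = 0.7). Kif21b was the minor partner of Kif21a, at 6.93%, 8.67% and 6.45% in CFA and 4.97%, 9.04% and 11.2% in saline (exact permutation p = 0.6). As a description chosen after the levels were seen, the ratio of Kif3a to the sum of its partners Kif3b and Kif3c was 1.48, 1.76 and 1.30 in CFA and 1.78, 1.95 and 1.82 in saline, so that each CFA library lay below the saline libraries. The Kif3c share and this ratio both use Kif3c counts, and 38.1% of Kif3c exon bases overlap 1110002L01Rik on the other strand. The part of that overlap in either was not tested.

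**Figure D3:**
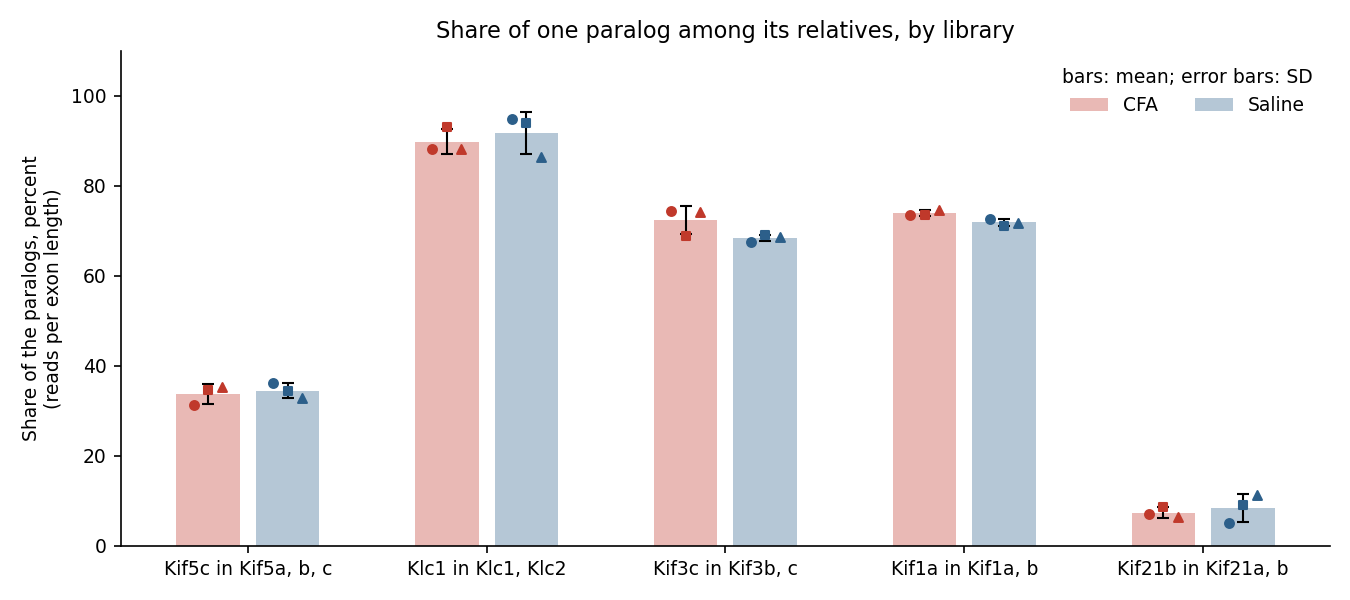
Share of 1 paralog among its relatives, in percent of reads per exon length, with the mean (bar), SD (error bar) and each library (markers as replicates 1, 2 and 3: circle, square, triangle), CFA left of saline. The Kif1a share is the only one of the 5 without overlap, at 73.9% in CFA and 71.8% in saline.

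The highest and lowest values were unevenly spread over the libraries (the heat map of members by library). Saline replicate 3 was the highest library for 15 of the 33 tested members (45.5%), against 23.9% of all genes, and Malat1, a nuclear long non-coding RNA, was at 27109 CPM there against 13906 to 21807 CPM in CFA and 17015 and 17636 CPM in the other saline libraries. Saline replicate 1 was the lowest library for 9 members (27.3%), 7 of them in the transport and microtubule-end classes, against 18.4% of all genes, and was the library with the highest striatal marker sum. The part of either in the kinesin values was not tested. Without saline replicate 1 the groups did not overlap for 10 members of 34 tested, against 17.4% of all genes, and the median over the members was -0.12. Without saline replicate 3 that median was 0.05. In either case 0 members were called.

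**Figure D4:**
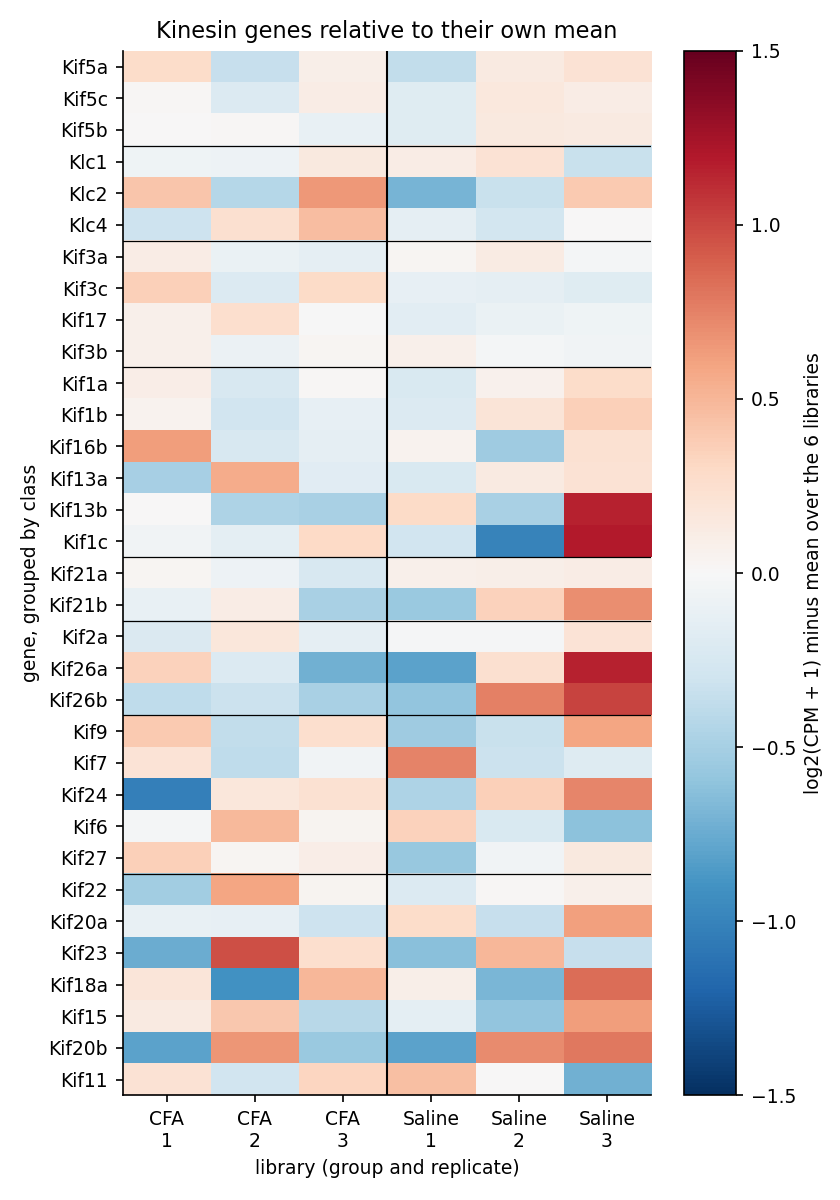
Level of each tested kinesin gene in each library, as log2(CPM + 1) minus the gene's mean over the 6 libraries, with CFA libraries left of the line and genes grouped by class as in the plot of levels. Saline replicate 3 holds the highest value of 15 genes. Kif3b varies least, from -0.093 to 0.081, while Klc2 ranges from -0.69 to 0.65.

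Genes that work with the kinesins were examined as lists. Of 32 tested cargo adaptors and regulators 0 were called, 19 had a positive and 13 a negative log2 fold change, and the median was 0.03. Groups did not overlap for 2 of them (6.25%), near the share over all genes. Mapk8ip1, a scaffold that binds kinesin light chains and regulates kinesin-1, was at 125, 132 and 149 CPM in CFA and 69.3, 93.3 and 118 CPM in saline, higher in each CFA library than in any saline library, with a log2 fold change of 0.53 ± 0.20 (unadjusted p = 0.0191, adjusted p = 0.99997 in edgeR's quasi-likelihood test). Cytoplasmic dynein and dynactin, which move cargo the other way, had 15 positive and 13 negative of 28 tested members and a median of 0.02, with 0 called. Tubulins and microtubule-associated proteins, the track, had 14 positive and 28 negative of 42 and a median of -0.06, and the groups did not overlap for 5 (11.9%), all lower in CFA, with 0 called. Over all genes 49.8% of fold changes were positive, and groups did not overlap in 7.51%, or in 3.97% with CFA lower. Map2, which bundles dendritic microtubules, was at 143, 142 and 117 CPM in CFA and 169, 170 and 199 CPM in saline, lower in each CFA library, with a log2 fold change of -0.42 ± 0.17 (unadjusted p = 0.0275, adjusted p = 0.99997 in edgeR's quasi-likelihood test). The other kinesin superfamily genes outside the naming rule, such as Kifap3, the subunit that joins kinesin-2 motors to cargo, had 4 positive and 2 negative of 6 tested and a median of 0.09, with 0 called.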

How the data were processed

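Per the labels' protocols, sorted nuclei (10000 a library) gave RNA for Smart-seq V4 amplification over 9 cycles, and Nextera XT libraries were made from 300 ng of product. Neither kit marks strand. The authors deposited raw read counts per gene model with exon lengths, 1 count column per library. The submitters' processing notes name the build mm10, Trim Galore, edgeR 3.32.1, featureCounts 2.0.1, HISAT2 2.2.1 and SAMtools 1.13. Strand and multi-mapping settings were not stated.

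Counts were tested with edgeR 4.0.16 (R 4.3.3): TMM normalization, default filterByExpr, quasi-likelihood test, treatment as the only term, Benjamini-Hochberg adjustment over 13560 genes, threshold 0.05. Standard errors and 95% intervals were derived from the F statistic. CPM used TMM-scaled library sizes, and RPKM the deposited exon length. Paralog shares were compared with exact permutation tests. Alternatives were RLE and library-size scaling, other filters, DESeq2 1.42.0, limma-voom 3.58.1, a replicate block, removal of an exon-length trend and leaving out each library. The fitting code was tested on simulated data. A count of 3 was taken as the limit that a count of 0 allows; such limits cover counting error only, since reads carry no molecular identifiers. Libraries of a group differed beyond sampling noise, with a chi-square of at least 16.4 per degree of freedom. Named genes are all tested transport and microtubule-end members, other tested members without overlap or with an unadjusted p under 0.05, the 3 most abundant tested mitotic and the 3 most abundant ciliary members, and from each other list at most 2 genes that meet both criteria; cell type marker lists are given as sums, counts and medians. Members and lists were chosen with earlier results of these data known.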

Additional observations from a re-analysis of the deposited data

How the results depend on the processing

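Under 8 alternatives of scaling, filter, tool, block and length trend, and on leaving out each library, 0 kinesin genes were called. Over all genes, 9 were called with no low-count filter, 5 with DESeq2 and 6 with the replicate block, and 0 to 5 on leaving out 1 library, with 5 without saline replicate 3. Members without overlap numbered 1 with library-size scaling and 2 to 10 on leaving out 1 library, when 13.4% to 22.5% of all genes did not overlap. The median log2 fold change over all tested kinesin members ranged from -0.12 to 0.05 on leaving out 1 library.

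A few fold changes changed sign: Kif3b was at -6.92e-06 with RLE scaling and -4.02e-05 with DESeq2, Kif1c at 0.42 with limma-voom and 0.31 with the replicate block (against -0.30), Klc1 at 0.0043 and 0.0030 under the same pair, and Kif1a at 0.014 and Kif13a at 0.054 with the exon-length trend removed. With that trend removed Kif1b kept its sign but moved from -0.24 to -0.016. The cause of these changes was not tested. On leaving out 1 library, 14 of 27 named members kept their sign. The others ranged from -0.42 to 0.19 for Kif13a, -0.16 to 0.36 for Kif16b, -0.21 to 0.037 for Kif1a, -0.80 to 1.18 for Kif1c, -0.21 to 0.41 for Kif22, -0.13 to 1.19 for Kif23, -0.97 to 0.077 for Kif26a, -0.035 to 0.059 for Kif3b, -0.15 to 0.17 for Kif5a, -0.16 to 0.027 for Kif5c, -0.48 to 0.25 for Kif7, -0.075 to 0.63 for Kif9 and -0.16 to 0.10 for Klc1. The difference in the Kif5c share ranged from -1.59 to 0.499 percentage points and that in the Kif21b share from -2.78 to 0.342; the Klc1 share kept its direction but ranged from -4.59 (without saline replicate 3) to -0.36 (without saline replicate 1), the Kif3c share ranged from 3.08 to 5.84 and the Kif1a share from 1.64 to 2.46.

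Deviations from the group means had correlations of -0.079, 0.025 and -0.069 between same-numbered libraries. Between differently numbered libraries they ranged from -0.079 to 0.15. The labels do not state whether the numbers pair libraries, and with 3 libraries a group these correlations cannot decide it. Intervals were widest among members under 20 CPM; how far counting error and library spread each contribute was not tested.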
